A study of Mus musculus with 4 samples.

Results

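Divergent promoters are stretches of DNA from which a pair of protein-coding genes is read in opposite directions, 1 gene from each strand. Pairs were taken from the GENCODE M21 annotation of the mouse build mm10 wherever a protein-coding gene on the minus strand and 1 on the plus strand had starts that point away from each other and lie 1 to 1000 bp apart, using the closest such starts of their protein-coding transcripts. This gave 1096 pairs with 2156 genes, or 9.95% of the 21670 protein-coding genes on chromosomes 1 to 19 and X. All pairs were kept, whether or not a peak lay there. The other 19514 protein-coding genes, called single promoters here, served for comparison. Of the genes, 36 belonged to 2 pairs each. Of the pairs, 381 had gene bodies that overlap, and 93 had other starts that lie closer together but face each other.

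The data were peak lists of H3K4me3, the trimethylated form of lysine 4 of histone H3 that marks active promoters, from chromatin immunoprecipitation and sequencing of heart tissue. The mice were female adults of the strain B6CASTF1/J, a first-generation hybrid of 2 inbred strains, aged 2 months, with no treatment and no other genotype named. The tissue was pooled: pools G and H each held 2 heart biosamples and gave 2 technical replicates, with fragments of 200 to 600 bp prepared by a protocol for frozen tissue. All labels name 1 donor record, so whether the pools came from separate animals is not known, and the spread between them may be technical. A pool's own list, the list for both pools and the list called replicated were deposited, and the replicated list, with 24996 peaks, is used unless another is named. A promoter was called occupied when a peak touched the 1000 bp on either side of its start. Of the whole list, 1187 peaks, or 4.75%, touched the window of a pair.

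The tissue label was set against defining markers. Promoters of 7 of 8 cardiomyocyte genes were occupied, the exception being Tnni3, as were 6 of 6 fibroblast genes and 5 of 6 endothelial genes. Of 5 immune genes and of 4 hepatocyte genes, 0 were occupied. Heart holds several cell types, so a peak can come from any of them, and fewer cells with the mark cannot be told apart from less mark per cell. The endothelial exception, Pecam1, encodes an adhesion molecule of vessel walls and is itself a member, as Pecam1/Milr1. Its annotated starts are 598 bp apart, and the nearest peak was 27386 bp away. Pecam1 was read only at the start its pair uses, and markers outside pairs, Tnni3 among them, only at their outermost protein-coding start. A marker called unoccupied may therefore still have a peak at another of its starts.

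At most active promoters RNA polymerase starts in both directions from a stretch kept free of nucleosomes, and H3K4me3 sits on the nucleosomes to either side, placed there by SET1 and MLL methyltransferases. At an ordinary promoter the stable transcript runs 1 way, and the antisense transcript is short-lived. At a divergent pair of coding genes both directions give an mRNA. Such pairs are known for CpG-rich DNA, for few TATA boxes and for housekeeping genes, among them genes of DNA repair and of mitochondria.

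The DNA between the starts is shown for 7 pairs that carry the patterns described below. Each runs from the start on the minus strand to the start on the plus strand, both included, 5′ to 3′ on the plus strand of mm10, and capitals mark a match on either strand to any of the 7 motifs listed in the next paragraph. Hspd1 and Hspe1 encode the chaperonin and co-chaperonin of the mitochondrial matrix (chr1:55088024-55088132, spanned by 1 peak). Hadha and Hadhb encode both subunits of the mitochondrial trifunctional protein of fatty acid oxidation (chr5:30155162-30155248, one of the widest domains). Sdhd encodes a subunit of succinate dehydrogenase, and Timm8b a chaperone of the mitochondrial intermembrane space (chr9:50603812-50603910, a domain reaching into Sdhd). Fen1 encodes a flap endonuclease of DNA replication (chr19:10203943-10204014, a high fold enrichment with no motif match). Brca1 encodes a repair protein and Nbr1 an autophagy receptor (chr11:101551879-101552149, split peaks). Col4a4 and Col4a3 encode chains of basement membrane collagen (chr1:82586849-82586976, a weak peak on CpG-poor DNA). Hist1h2ap and Hist1h2br encode histones H2A and H2B (chr13:21833507-21833743, no peak).
Hspd1/Hspe1: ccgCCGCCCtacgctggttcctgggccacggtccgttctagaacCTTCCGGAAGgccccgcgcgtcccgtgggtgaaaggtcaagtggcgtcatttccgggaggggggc
Hadha/Hadhb: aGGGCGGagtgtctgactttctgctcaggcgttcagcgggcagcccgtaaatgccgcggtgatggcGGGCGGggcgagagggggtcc
Sdhd/Timm8b: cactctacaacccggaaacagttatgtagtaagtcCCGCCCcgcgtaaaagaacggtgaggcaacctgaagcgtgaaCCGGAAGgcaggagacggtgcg
Fen1/Tmem258: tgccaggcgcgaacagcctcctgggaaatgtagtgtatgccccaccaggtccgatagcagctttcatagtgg
Brca1/Nbr1: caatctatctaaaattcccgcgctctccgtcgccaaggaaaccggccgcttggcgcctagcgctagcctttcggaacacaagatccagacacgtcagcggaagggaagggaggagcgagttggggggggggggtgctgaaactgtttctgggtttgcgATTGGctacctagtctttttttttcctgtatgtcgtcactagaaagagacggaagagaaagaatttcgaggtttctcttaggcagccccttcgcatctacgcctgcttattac
Col4a4/Col4a3: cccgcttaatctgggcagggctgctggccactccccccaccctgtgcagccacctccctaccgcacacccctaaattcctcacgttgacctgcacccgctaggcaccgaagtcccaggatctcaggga
Hist1h2ap/Hist1h2br: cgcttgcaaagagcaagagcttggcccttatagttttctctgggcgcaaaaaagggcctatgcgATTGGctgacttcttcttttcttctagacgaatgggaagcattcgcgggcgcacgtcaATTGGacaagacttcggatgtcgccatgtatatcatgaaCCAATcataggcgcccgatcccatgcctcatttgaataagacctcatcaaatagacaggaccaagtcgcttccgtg

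Motifs were counted in 300 bp windows, centred between the starts of each of the 1096 pairs and on the start of each of the 21670 promoters, on both strands, and matches to different motifs may overlap. GGGCGG, the core bound by Sp1, was in 65.1% of pairs, 46.9% of all promoters and 77.4% of single promoters with CpG-rich starts. The CCAAT box, CCAAT, was in 40.9%, 36.3% and 33.5% of the same groups. CCGGAAG, a site of ETS factors, was in 27.3% of pairs, against 11.7% of all promoters and 18.2% of CpG-rich single promoters. AANATGGC, a core bound by YY1, was in 12.6%, 6.86% and 9.73%, and TCTCGCGA in 4.29%, 1.37% and 2.20%. GCGCATGC, part of the site of NRF1, was in 5.84%, 3.28% and 5.68%. TATAAA was in 5.02% of pairs, 10.5% of all promoters and 3.78% of CpG-rich single promoters. A match is a string of letters and not a bound site. These windows set all pairs, CpG-poor ones included, beside CpG-rich single promoters. In windows of the same length from 250 bp before to 50 bp after each start, with CpG-rich starts on both sides of the comparison, the ETS string was in 31.2% of genes of pairs and 16.9% of single promoters, the YY1 core in 12.5% and 7.77%, and TCTCGCGA in 4.88% and 2.23%. CCAAT was in 41.0% and 37.5%, and GCGCATGC in 7.04% and 5.93%. GGGCGG was then nearly equal, at 72.5% and 73.1%. TATAAA, at 3.16% and 6.10%, was less frequent in pairs, the reverse of its order in the centred windows. At most pairs such a window also holds the partner's start, which a single promoter's window lacks. Both genes of a close pair also bring in much the same DNA. Neither was allowed for. Of the sequences shown, Hspd1/Hspe1 holds the ETS string on both strands in 1 overlapping stretch, Sdhd/Timm8b holds it once, and Hist1h2ap/Hist1h2br holds 3 CCAAT matches.

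H3K4me3 was found at nearly all divergent pairs. A peak occupied 1038 of 1096 pairs, or 94.7% (95% exact binomial interval 93.2 to 96.0), against 60.3% of all protein-coding promoters and 11031 of 19514 single promoters, or 56.5% (55.8 to 57.2). Counted by gene, with the window around its own start, 2042 of 2156 genes of pairs were occupied (94.7%). That window always holds the partner's start too. In pool G's own list 1038 pairs (94.7%) were occupied against 60.7% of all promoters, and in pool H's own list 1036 (94.5%) against 58.6%. Over the 2 pools the share was 94.6% ± 0.129 (SD, n = 2) for pairs and 55.8% ± 1.63 (SD, n = 2) for single promoters, a gap far wider than the spread between pools. The intervals cover counting error only, and members are not replicates, so no test was run.

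CpG content differed between the groups compared. A start was called CpG-rich when, in the 501 bp around it, the CpG ratio (CpG count over that expected from base content) reached 0.6 and GC content reached 50%. This held for 83.7% of genes of pairs and 45.1% of single promoters. Among CpG-rich starts, 98.5% of pair genes (97.8 to 99.0) and 94.0% of single promoters (93.5 to 94.5) were occupied. Among the others the gap was wider, with 264 of 351 pair genes (75.2%, 70.4 to 79.6) against 2754 of 10708 single promoters (25.7%, 24.9 to 26.6). Pairs with 2 CpG-rich starts were occupied in 838 of 852 cases (98.4%), pairs with 1 in 126 of 129 (97.7%) and pairs with none in 74 of 115 (64.3%). Within either CpG class, genes of pairs thus had a peak in their window more often than single promoters. The window of a pair gene always holds its partner's start as well. The classes match the gene's own start and not the partner's, and this was not allowed for.

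The own side of a CpG-poor gene held a peak more often when its partner was CpG-rich. The own side is the 1000 bp running into the gene. It held a peak in 111 of 129 CpG-poor genes with a CpG-rich partner (86.0%, 78.8 to 91.5), in 134 of 230 with a CpG-poor partner (58.3%, 51.6 to 64.7) and in 24.98% of CpG-poor single promoters. Here genes of pairs were counted once for each pair they belong to. For CpG-rich genes the share was 97.9% with a CpG-rich partner and 97.7% with a CpG-poor one. A gene's own side also lies upstream of its partner's start, so a peak there may be that of the partner. Of occupied CpG-rich single promoters, 59.1% were covered 500 bp upstream of the start. Which start a peak belongs to was not tested.

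Most pairs lie close together. The median distance was 120.5 bp (quartiles 66 and 243), and 459 pairs were up to 100 bp apart, 427 over 100 and up to 300 bp, 135 over 300 and up to 600 bp and 75 over 600 bp. Occupied shares over these 4 ranges were 95.9%, 94.1%, 95.6% and 89.3%, with overlapping intervals. Just inside the limit stood Btf3l4/Txndc12 at 987 bp, with a fold enrichment of 18.4 and a domain of 3325 bp, and just outside stood Nacc1/Trmt1 at 1004 bp, with 21.6 and 3866 bp. Within the last 100 bp below the limit 13 of 14 pairs were occupied, and in the 100 bp beyond it 11 of 13.

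**Figure D1:**
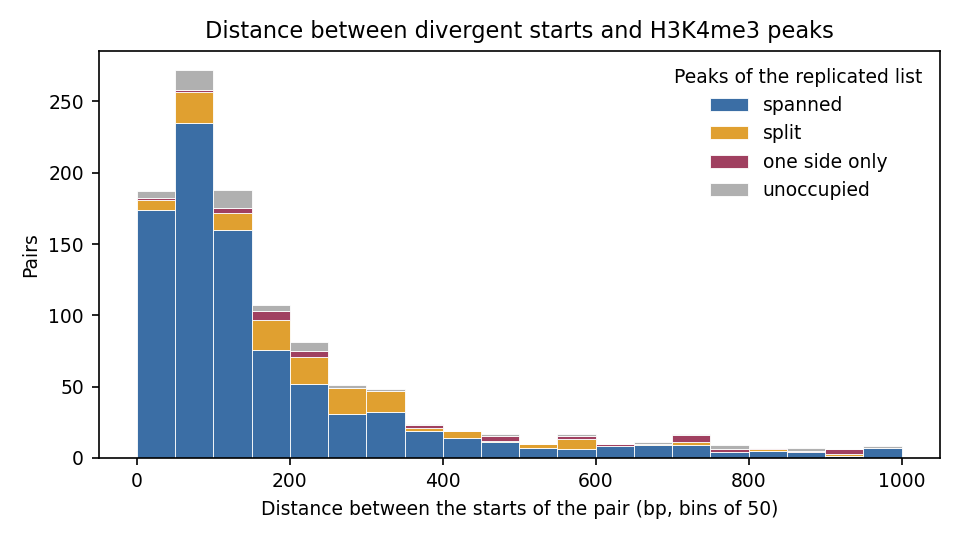
Number of pairs (y axis) by distance between the starts in bp (x axis, bins of 50 bp), coloured by the arrangement of peaks in the replicated list: 1 peak over both starts (spanned), separate peaks (split), peaks on 1 side only, or none. Of the 1096 pairs, 864 were spanned, and split pairs had a longer median distance, 222.5 bp against 108 bp.

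The mark at pairs was also higher and wider. Fold enrichment is the deposited signal value of the highest peak, read as a ratio over a control. Its median over occupied pairs was 17.5 (quartiles 14.3 and 20.5), against 15.2 over all occupied promoters, 14.7 over single promoters and 15.95 over CpG-rich single promoters. A fold enrichment of 20 or more was reached by 30.1% of occupied pairs, 17.5% of single promoters and 21.3% of CpG-rich single promoters. Peaks separated by gaps of up to 1000 bp were merged into 1 domain, and the median domain was 2114 bp at pairs (quartiles 1742 and 2643), 1696 bp at single promoters and 1757 bp at CpG-rich ones. Each pool's own list was called by itself, and whether levels are on 1 scale across lists is not known. Pool G gave 20.5 for pairs and 17.5 for single promoters, and pool H gave 14.7 and 12.5. The order of pairs over single promoters was the same in each list, although the pools' means, 17.6 ± 4.13 and 15.0 ± 3.53 (SD, n = 2), overlap. Domain medians were 2098 ± 170 bp for pairs and 1686.5 ± 142 bp for single promoters (SD, n = 2), which do not overlap.

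Pool G's values were higher than pool H's at 996 of the 1035 pairs occupied in both, by a median log2 difference of 0.50 with an SD of 0.26 over pairs. Pool G's domains were wider at 924 of them. Only 4 pairs were occupied in 1 pool. Cysrt1/Rnf208 had a fold enrichment of 4.35 in pool G's list, Tssk3/Fam229a 4.54 and Slc25a53/Zcchc18 4.92, all low, with no peak in pool H's. 3110070M22Rik/Tmem267 had 16.2 in pool H's list and no peak in pool G's or in the replicated list. The other 57 pairs were occupied in neither pool.

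**Figure D2:**
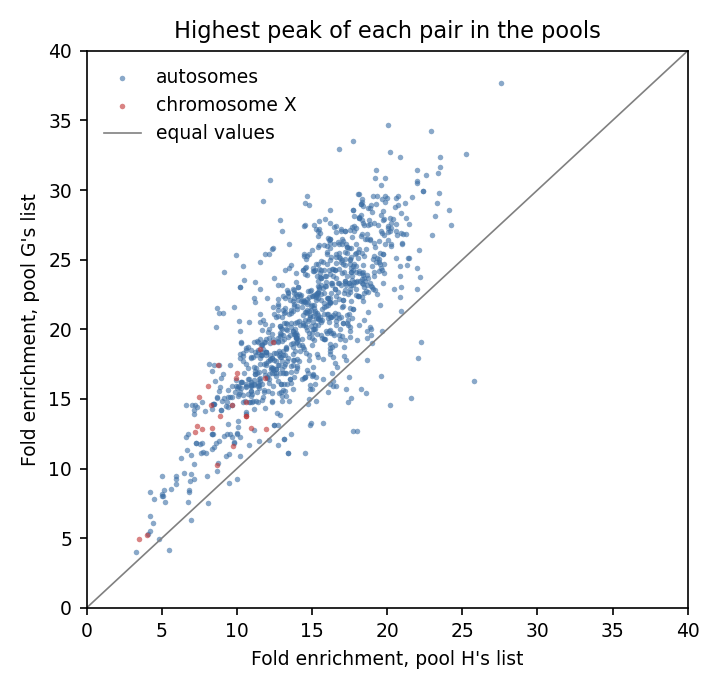
Fold enrichment of the highest peak at each of the 1035 pairs occupied in both pools, pool H's own list (x axis) against pool G's own list (y axis), with pairs on X in red and the line of equal values in grey. Most points, 996 of 1035, lie above the line, and the points on X sit among the lower values.

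Peaks usually ran across both starts without a gap. A single peak covered both starts of 864 occupied pairs (83.2%), 138 pairs (13.3%) had peaks on both gene sides but none over both starts, and 36 (3.47%) had a peak on 1 gene side only. No pair had a peak between the starts alone. Both gene sides were covered at 1002 of 1038 occupied pairs (96.5%, 95.2 to 97.6), where 92.1% of all occupied promoters and 96.9% of CpG-rich single promoters had a peak both upstream and downstream of the start. All pairs, CpG-poor ones included, thus had a share close to that of CpG-rich single promoters. Like for like the share was higher at pairs. It was 99.2% at pairs with both starts CpG-rich. Of occupied CpG-rich genes of pairs, 99.4% had a peak both upstream and downstream. The upstream side of such a gene holds the partner's start.

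The arrangement changed with distance. Spanned pairs made up 93.0% of occupied pairs at up to 100 bp, 79.4% at over 100 and up to 300 bp, 69.0% at over 300 and up to 600 bp and 70.1% at over 600 bp. Split pairs went from 6.59% to 17.4% and 25.6%, then 8.96% in the widest range, where 14 of 67 pairs (20.9%) were marked on 1 side only. The uncovered gap of split pairs had a median of 132.5 bp. It left both starts uncovered in 20 of the 138 pairs, only the minus-strand start in 23 and only the plus-strand start in 27, and it fell between covered starts in the other 68. Split pairs held GGGCGG in 80.4% and CCAAT in 55.1% of windows, against 66.7% and 38.4% of spanned pairs. They held the YY1 core less often, in 6.52% against 14.8%, as they did the ETS string (24.6% and 29.9%) and TATAAA (2.90% and 5.21%). GCGCATGC was in 7.25% and 5.90%, and TCTCGCGA in 5.80% and 4.05%. Split pairs lay further apart, at a median of 222.5 bp against 108 bp for spanned pairs. Their starts thus lay further from the centre of the fixed windows, and motifs were not compared at equal distance.

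Atm/Npat and Brca1/Nbr1 are split pairs. Atm encodes a kinase of the DNA damage response and Npat a regulator of histone genes, with starts 307 bp apart. The pair had peaks to either side of a 128 bp gap, with a fold enrichment of 19.8 in the replicated list, 23.5 in pool G's and 18.5 in pool H's. At Brca1/Nbr1, 270 bp apart, the gap was 94 bp and the values were 15.6, 18.7 and 13.7. Both pairs were spanned by 1 peak in pool G's list and were split in pool H's. This was the general direction, since 125 pairs were spanned in pool G and split in pool H, and 5 were the reverse. Fold enrichment was also lower in pool H's list, and its part in the breaks was not tested. Of 1035 pairs, 886 (85.6%) had the same arrangement in both pools. Among pairs on 1 side only in both, 29 were on the same side and 0 on opposite sides.

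**Figure D3:**
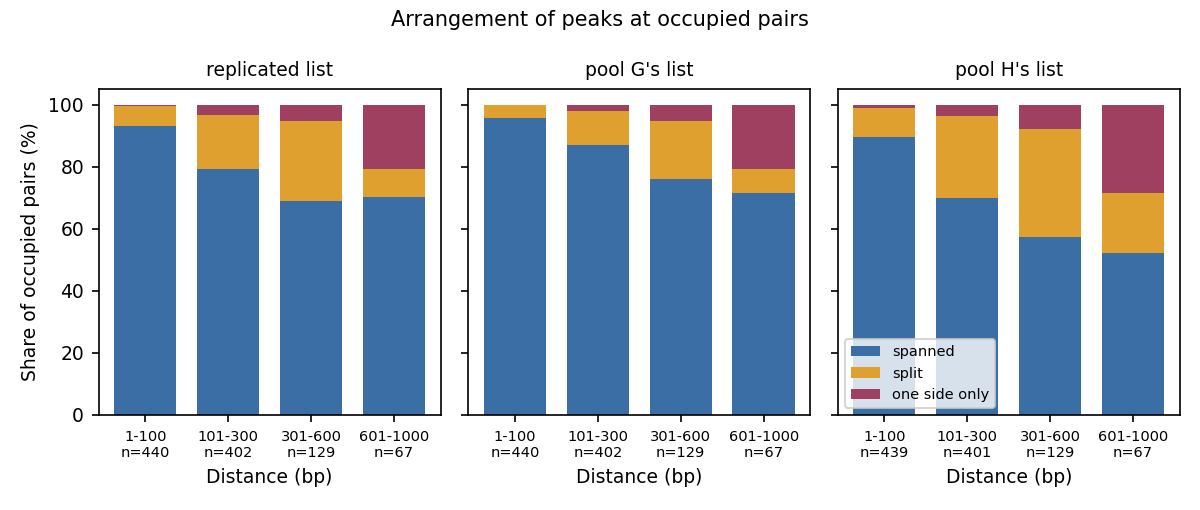
Share of occupied pairs (y axis, %) whose starts were spanned by 1 peak, split, or marked on 1 side only, for 4 ranges of distance between the starts (x axis, bp, with the number of occupied pairs), in the replicated list and in each pool's own list. Spanned shares fell from 93.0% to 70.1% between the nearest and the widest range of the replicated list, and pool H's list had more split pairs, 205 against 91 in pool G's.

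The sides of a pair were marked to unequal lengths, but less so than the sides of a single promoter. The domain ran a median of 1157.5 bp beyond the start on the longer side of a pair and 771.5 bp on the shorter, against 1186 bp and 553 bp at CpG-rich single promoters. Within the 1000 bp beyond each start, a length that the fuller side usually filled, the covered lengths differed by a median of 157.5 bp at pairs and 346 bp at CpG-rich single promoters. Summits lay in the minus-strand gene at 495 pairs, in the plus-strand gene at 507 and between the starts at 36. Those beyond a start lay at a median of 214 bp from it. At CpG-rich single promoters 87.6% of summits were downstream. The median position of all their summits, upstream ones included, was 204 bp downstream.

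The domain reached less far into genes of pairs than into single genes. It ran a median of 943 bp into a pair gene (quartiles 728 and 1243), against 1146 bp into a CpG-rich single gene (845 and 1613) and 572 bp upstream of it. At 1000 bp into the gene, a peak covered 43.2% of starts of pairs up to 100 bp apart and 60.7% of CpG-rich single starts. At 1000 bp upstream the order was reversed, 49.5% against 13.3%. The greater width at pairs therefore lay on the side that is upstream for each gene and downstream for its partner. In pairs over 300 and up to 600 bp apart, coverage had a dip of 80.6% at 150 bp upstream of each start, and CpG-rich single promoters had one of 83.5% at 100 bp upstream.

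**Figure D4:**
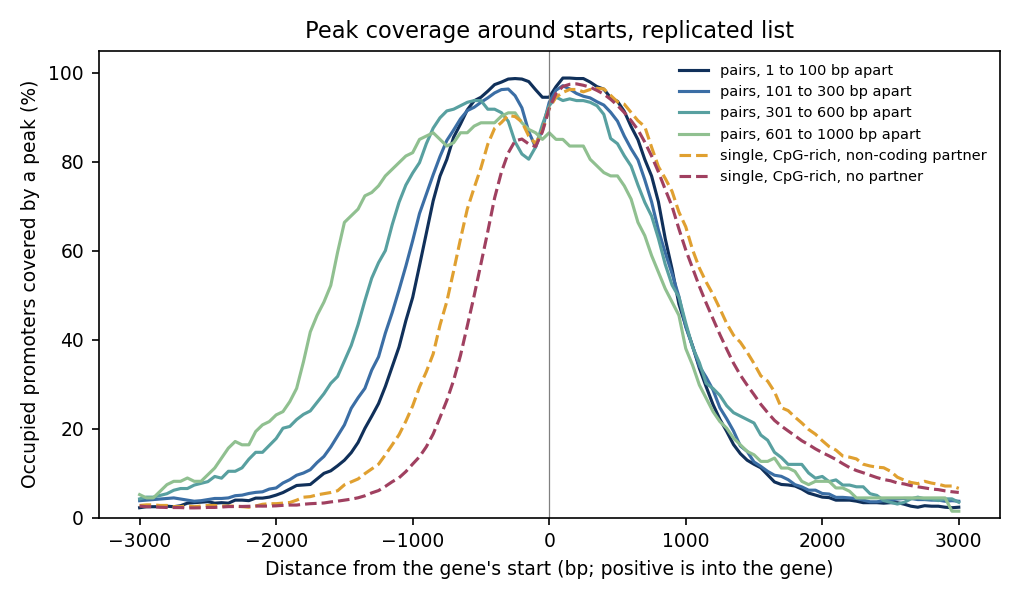
Share of occupied promoters covered by a peak of the replicated list (y axis, %) at each distance from the gene's start in bp (x axis, positive into the gene), for pairs in 4 ranges of distance, where each occupied pair enters once from each start, and for CpG-rich single promoters with and without a non-coding gene starting on the other strand within 1000 bp. Pairs keep high coverage upstream, 49.5% at 1000 bp for the nearest pairs against 13.3% for all CpG-rich single promoters, and fall off sooner into the gene.

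Genes of the same role were found in pairs to different extents, set against 9.95% of all protein-coding genes. Of 67 histone cluster genes 27 were in pairs (40.3%), of 86 DNA repair and replication genes 32 (37.2%), of 78 mitochondrial ribosomal proteins 26 (33.3%), and of 107 respiratory chain subunits and assembly factors 34 (31.8%). Shares were 24.3% for aminoacyl-tRNA synthetases, 23.9% for chaperones of the Dnaj and Hsp names, 22.0% for proteasome genes, 16.1% for genes named Tmem and 15.7% for cytosolic ribosomal proteins. They were lower for numbered zinc finger proteins (6.60%) and solute carriers (6.74%), and 0 of 1134 olfactory receptors were in a pair. Collagens (3 of 45, 6.67%) and a list of 50 heart genes (3 genes) had counts too small to be read as low. All 26 mitochondrial ribosomal, 34 respiratory chain, 32 repair and replication, 26 zinc finger, 11 proteasome and 9 synthetase genes in pairs were occupied. Among the other families the counts were 12 of 13 for cytosolic ribosomal genes, 16 of 17 for chaperones, 24 of 25 for solute carriers and 37 of 39 for genes named Tmem. These shares lie near that of all genes of pairs, 2042 of 2156 (94.7%). Outside pairs the occupied shares of mitochondrial ribosomal, respiratory chain and repair genes were also high, at 100%, 93.2% and 98.1%. They were lower for solute carriers (60.1%), genes named Tmem (70.0%) and numbered zinc finger proteins (82.6%). Proteasome genes had 87.2%, chaperones 88.9%, cytosolic ribosomal genes 95.7% and synthetases 96.4%.

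Within pairs, the domain was not shared evenly between roles. In 35 pairs with 1 respiratory chain gene (34 genes, since Cox4i1 is in 2 pairs), the domain ran further into the respiratory chain gene in 28 and further into the partner in 7, with medians of 1336 bp and 863 bp. In the pools' own lists the counts were 27 against 7 with 1 tie in pool G and 25 against 10 in pool H. All 12 pairs with 1 cytosolic ribosomal gene had the longer side in that gene, 1277 bp against 934 bp, with 10 of 12 in pool G and 12 of 12 in pool H. The 30 pairs with 1 gene of DNA repair and replication went the other way: the longer side was in the partner in 22, 22 in pool G and 21 in pool H, with medians of 763 bp in the repair gene and 1050.5 bp in the partner. Mitochondrial ribosomal genes, at 15 of 24, and numbered zinc finger genes, at 10 of 20, were near an even split. Without joining of peaks the first 3 counts were 26 of 35, 12 of 12 and 23 of 30. This comparison, and the pairs named next, were chosen after the values were seen.

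Atp5c1, Atp5a1 and Atp5h encode subunits of the mitochondrial ATP synthase. At Atp5c1/Kin the domain ran 4050 bp into Atp5c1 and 880 bp into Kin, a gene for a DNA-binding nuclear protein. Pool G's list gave 5356 and 878 bp and pool H's 2468 and 883 bp. At Haus1/Atp5a1 it ran 3155 bp into Atp5a1 and 641 bp into Haus1, a subunit of the spindle complex augmin, with 3186 and 735 bp in pool G and 3122 and 620 bp in pool H. At Atp5h/Kctd2 the lengths were 3330 and 1102 bp, with 3300 and 1394 bp in pool G and 2148 and 1192 bp in pool H. Ndufa5 and Ndufa8 are named as subunits of complex I. At Ndufa5/Asb15 the domain ran 2870 bp into Ndufa5 and 100 bp into Asb15, and at Ndufa8/Morn5 1897 and 250 bp. In pool H the latter pair had 1811 bp in Ndufa8 and 0 bp in Morn5. At Sdhd/Timm8b, whose 99 bp are printed above, it ran 3169 bp into Sdhd and 979 bp into Timm8b, with 3213 and 1013 bp in pool G and 2483 and 817 bp in pool H. The side of the respiratory chain gene was the longer one for these pairs in the replicated list and in both pools' own lists.

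Among ribosomal pairs, Iqcg/Rpl35a had 1495 bp in Rpl35a and 428 bp in Iqcg, and Lrsam1/Rpl12 had 1363 bp in Rpl12 and 332 bp in Lrsam1. Both partners are genes of other roles, Iqcg of flagella and Lrsam1 of ubiquitin ligation. At Trappc4/Rps25 the sides were nearly equal, 1008 bp in Rps25 and 991 bp in Trappc4. The exceptions in pool G were Sphk2/Rpl18, with 3613 bp in Sphk2 where the replicated list had 831 bp, and Rps18/Vps52. Rps28/Ndufa7 joins a ribosomal and a complex I gene, with 1112 bp in Rps28 and 1011 bp in Ndufa7.

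Among repair pairs, Brca1/Nbr1 had 422 bp in Brca1 and 2079 bp in Nbr1, and Xrcc4/Tmem167 had 182 bp in Xrcc4, an end-joining gene, and 1520 bp in Tmem167. Cdc45/Ufd1 had 527 bp in Cdc45, a replication factor, and 1558 bp in Ufd1, a cofactor of protein degradation. Against this direction, Mcm9/Asf1a had 1578 bp in Mcm9 and 576 bp in Asf1a, and Pinlyp/Xrcc1 had 1351 bp in Xrcc1 and 0 bp in Pinlyp.

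**Figure D5:**
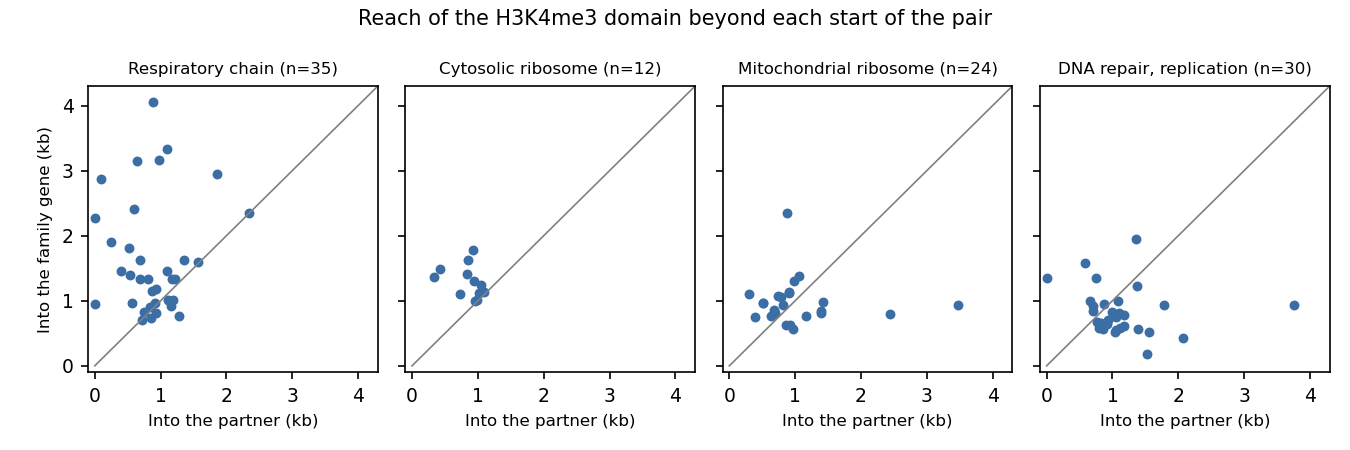
Length in kb by which the H3K4me3 domain runs beyond the start into the family gene (y axis) and into its partner (x axis), 1 point per occupied pair with 1 gene of the family, replicated list, with the line of equal lengths in grey. Points lie above the line for 28 of 35 respiratory chain pairs and 12 of 12 cytosolic ribosomal pairs, and below it for 22 of 30 repair and replication pairs.

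Several pairs known from textbooks were members, and all of these were occupied in every list. Hspd1/Hspe1, 108 bp apart, had 1 peak of 3079 bp with a fold enrichment of 15.5, with 20.0 for pool G and 13.3 for pool H. Surf1/Surf2, of the surfeit cluster, are 22 bp apart, with 13.6, 16.6 and 15.2 in the same order. Med22/Rpl7a of the same cluster had 17.5, 19.7 and 15.0. Mcm4/Prkdc joins a helicase subunit of replication with a kinase of end joining, 489 bp apart, with 14.5, 14.9 and 12.4. It was spanned in the replicated list and split in pool H's. Gart/Son, a purine synthesis enzyme and a splicing factor 554 bp apart, had 15.1, 18.4 and 14.2.

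Mrps12/Sars2 joins a mitochondrial ribosomal protein with the mitochondrial seryl-tRNA synthetase, with 20.7, 23.5 and 17.7. Emc8/Cox4i1, with a subunit of cytochrome c oxidase, had 17.5, 20.9 and 16.3, and Hscb/Chek2, an iron-sulfur co-chaperone and a checkpoint kinase, had 11.8, 14.9 and 11.1. Psmb9/Tap1, an immunoproteasome subunit and a peptide transporter of antigen presentation 38 bp apart, had 17.0, 21.8 and 12.7. Wrap53/Trp53, with the tumour suppressor p53, had 20.0, 23.2 and 17.6 although neither start was CpG-rich. Col4a1/Col4a2 and Paics/Ppat are not members here. Their nearest annotated starts face each other, with the plus-strand start at -21 and -196 bp from the minus-strand one. The nearest starts that point away from each other are 33149 bp apart at Col4a1/Col4a2, and none were found for Paics/Ppat. Col4a5/Col4a6 is not a member because its starts are 1309 bp apart.

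The collagen pair Col4a4/Col4a3 was among the weakly marked members. Its starts are 127 bp apart, its CpG ratios 0.48 and 0.45, and its single peak of 1358 bp had a fold enrichment of 6.77, with 8.04 for pool G and 4.98 for pool H. Each value lies far below the lower quartile of occupied pairs in its own list. That quartile was 14.3 in the replicated list, 16.7 in pool G's and 11.9 in pool H's.

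The heart list had 3 genes in pairs. Hadha/Hadhb, 86 bp apart, had a fold enrichment of 20.2, with 24.5 for pool G and 10.4 for pool H, and a domain of 7312 bp that ran 3569 bp into Hadha and 3656 bp into Hadhb. It was the third widest domain of all pairs in the replicated list. The widest single peak there was 3947 bp, and the domain was 9690 bp for pool G and 5765 bp for pool H. Hspb2/Cryab, small heat shock proteins abundant in muscle, are 553 bp apart and CpG-poor at both starts, with ratios of 0.29 and 0.16. A single peak of 4433 bp spanned the pair, with a fold enrichment of 11.3, 13.2 and 9.43, and the domain ran 2557 bp into Cryab and 1322 bp into Hspb2.

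The widest domains of the replicated list were at Abi3/Gngt2 (9139 bp) and Mdh1/Wdpcp (7852 bp), followed after Hadha/Hadhb by Brd2/H2-DMa (7234 bp) and Kctd10/Ube3b (7071 bp). Mdh1 encodes cytosolic malate dehydrogenase, and its domain ran 7014 bp into Mdh1 and 795 bp into Wdpcp, a planar polarity gene. The whole domain of this pair was 8244 bp for pool G and 4399 bp for pool H. At Brd2/H2-DMa 6035 bp lay in Brd2, a bromodomain protein, and 966 bp in H2-DMa. Widths at Abi3/Gngt2 rest on joining: the widest single peak was 4059 bp, and the domain was 4722 bp for pool G and 3492 bp for pool H. Kctd10/Ube3b varied likewise, from 4500 bp in pool H's list to 11896 bp in pool G's, while Brd2/H2-DMa gave 7150 and 7130 bp.

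The highest fold enrichment was at Cdiptos/Cdipt, 32.6 in the replicated list, 37.7 in pool G's and 27.6 in pool H's, with 352 bp covered on the side of Cdiptos and 1000 bp on that of Cdipt, an enzyme of phosphatidylinositol synthesis. Skiv2l/Nelfe, an RNA helicase and a subunit of the elongation factor NELF, had 28.0. Fen1/Tmem258 had 27.7, Snrpa/BC024978 27.6 and Styxl1/Mdh2 27.3. Mdh2 encodes mitochondrial malate dehydrogenase, and at Styxl1/Mdh2, with starts 95 bp apart, split in all 4 lists and with a gap of 187 bp in the replicated list, the domain ran 2068 bp into Mdh2 and 742 bp into Styxl1.

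The 36 pairs marked on 1 side only had a median distance of 453 bp. The gene on the covered side had a median CpG ratio of 0.70 and the other 0.28, and the ratio was higher on the covered side in 29 of 36. Among those with the largest difference between sides, each with 1000 bp covered on 1 side and 0 bp on the other, were Cbln3/Khnyn, Frg2f1/Foxj3, Hmmr/Nudcd2 and Mettl6/Eaf1. At Frg2f1/Foxj3, 892 bp apart, the mark lay on Foxj3, a forkhead factor, with CpG ratios of 0.22 at Frg2f1 and 1.00 at Foxj3. Hmmr/Nudcd2 differed in that both starts were CpG-rich, at 0.70 and 0.81, and Hmmr, a gene of the mitotic spindle, was the uncovered side. In pool G's list that pair was covered on both sides. The other 3 were marked on the same side in every list.

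Of the 58 pairs without a peak, 41 had no CpG-rich start and 14 had 2. Their median distance to the nearest peak was 27718 bp, and 8 had a peak within 5000 bp. A gene symbol of the Gm or Rik kind, given to predicted or uncharacterised genes, was part of 18 of them and of 111 pairs in all. Slc30a3/Dnajc5g and Il11/Tmem190 had no peak in any list and the nearest ones 8324 and 5303 bp away. At Rnf151/Rps2, 53 bp apart and with CpG ratios of 0.13 and 0.15, the nearest peak was 1152 bp away, and the pair rests on the outermost annotated start of Rps2, a cytosolic ribosomal gene with other starts further downstream.

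Histone genes made up 13 pairs with 2 histone genes each, and 21 of the 27 histone genes in pairs were occupied, against 94.7% of all genes of pairs and 35 of 40 histone genes outside pairs (87.5%). The median fold enrichment was 9.81 in pairs and 9.46 outside them, and the median domain was 3151 bp and 1790 bp. The 6 others formed Hist1h2ap/Hist1h2br, Hist1h2bq/Hist1h2ao and Hist1h2ba/Hist1h2aa, with nearest peaks 21767, 22534 and 161121 bp away. The starts of the first 2 were CpG-rich. Genes of these clusters have near-identical copies, to which short reads may not be assigned, so the absence of a peak there is uncertain, and the effect of mapping was not tested.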

How the data were processed

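Pairs, gene lists and the comparisons were chosen with earlier results of these data known. The authors deposited 4 peak lists on mm10 and no values per library, since technical replicates of a pool share an alignment. The deposited signal value of each peak was read as a ratio, a fold enrichment over a control; the lists do not name the column, so this is an assumption. The deposited −log10 q was used only for an alternative limit, and 667 peaks of the replicated list had a q over 0.05. The peak caller and its threshold are not given in the sources used here, nor is read depth, so binomial intervals cover counting error only. The genome sequence is of 1 inbred strain, while the mice were hybrids.

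Genes of pairs were read at the start their pair uses and single genes at their outermost protein-coding start; overlap was at least 1 bp. Python 3.11.15, numpy 2.4.6, scipy 1.17.1 and pysam 0.24.0 were used. Pair finding and arrangements were tested on simulated data. No test was run, since there is 1 tissue and no second condition.

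Named were textbook pairs that are members, the 6 pairs highest in fold enrichment, the 5 widest, the 5 with the largest difference between sides, pairs occupied in 1 pool, pairs with a heart gene, and up to 6 unoccupied pairs of the families listed. Some pairs that this rule names are not reported here. Families were matched by symbol; the repair and synthetase lists were written by hand. Values were recomputed with each of the other 3 lists, a minimum −log10 q of 5, windows of 500 and 2000 bp, a distance limit of 500 bp, outermost starts, basic transcripts, no predicted genes, an overlap of 200 bp, joining over 0 and 3000 bp, and other choices of single promoter.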

Additional observations from a re-analysis of the deposited data

How the results depend on the processing

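Of 77 values recomputed under an alternative, 64 stayed within the counting interval of a share, the spread between the pools of a median, or 1.5 times a count. That spread is set by the pools' own lists, so their medians staying within it says little. In each of 18 settings pairs were occupied more often than single promoters. The occupied share of pairs ranged from 94.5% to 94.7% over the pools' own lists, and was 96.2% without pairs whose gene bodies overlap, an alternative chosen after seeing the data. The share of single promoters ranged from 54.6% to 56.9% over the pools' lists. It was 54.9% at a −log10 q of at least 5, 55.6% with a window of 500 bp, 57.6% with one of 2000 bp, 57.5% for outermost starts and also 57.5% for basic transcripts, 60.2% without predicted genes, 54.99% without non-coding partners and 59.4% when any start counted. The median domain of pairs was 1941.5 bp without joining. Both gene sides were covered in 95.2% to 96.9% of occupied pairs over the pools' lists and in 97.9% of pairs up to 500 bp apart. Also chosen after seeing the data were the requirement that the nearest starts diverge (1003 pairs) and the counts of longer sides by family. Neither left its range. For the respiratory chain and repair pairs, 1.5 times a count also takes in a near-even split, so the range does not test their direction.

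No paired analysis was possible because the technical replicates of a pool share 1 list and no result comes from a test across libraries. Read depth was not given, so a weak mark and no mark cannot be told apart at unoccupied pairs. Domains joined over gaps can include a neighbouring promoter.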

Other observations

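A non-coding gene is here any gene not annotated as protein-coding, pseudogenes included. Single promoters with a non-coding gene starting on the other strand within 1000 bp lay between pairs and the other single promoters in several measures. There were 1023 of them, and among those with CpG-rich starts 755 of 783 were occupied (96.4%), against 93.8% of CpG-rich single promoters with no partner and 98.5% of CpG-rich genes of pairs. Their median domain was 2053 bp, against 1736 bp with no partner and 2134 bp at CpG-rich genes of pairs. Their median fold enrichment was 16.5, against 15.9 and 17.7. The domain ran 1224 bp into the gene and 747 bp upstream, against 1141 bp and 554.5 bp with no partner. Over all occupied pairs, CpG-poor ones included, it ran 943 bp into a gene. Reach into the gene was thus longest with a non-coding partner and not in between.

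Pairs on chromosome X carried lower peaks. Of 30 pairs on X, 25 were occupied (83.3%), against 95.0% of autosomal pairs. At CpG-rich single promoters the shares were 88.8% on X and 94.1% on autosomes. Occupied pairs on X had a median fold enrichment of 11.5, against 17.6 at the 1013 occupied pairs on autosomes. In pool G's own list the medians were 13.8 and 20.7, and in pool H's 9.27 and 14.8. CpG-rich single promoters also had lower values on X, with a median of 10.7 against 16.1 on autosomes, so the difference was seen in both kinds of promoter. Autosomes ranged widely in how many of their genes were in pairs, from 5.97% on chromosome 6 to 13.2% on chromosome 12, against 6.12% on X.

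Which gene of a pair held the summit was largely repeated between pools. Of 982 pairs with a summit beyond a start in both lists, 784 (79.8%) had it on the same side, and the longer side of the domain was the same in 900 of 1033 (87.1%). The longer side was that of the start with the higher CpG ratio in 636 of 1035 occupied pairs with unequal sides (61.4%), and in 90 of 126 pairs with 1 CpG-rich start (71.4%). The summit was on the longer side in 685 of 1001 pairs (68.4%).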
